A study of Drosophila melanogaster with 18 samples.

Results

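Eye-antennal imaginal discs of Drosophila melanogaster that were mutant for CtBP, a transcriptional co-repressor, were compared with control discs by RNA sequencing. The comparison took 6 of the 18 libraries of the series, 3 of CtBP mutant discs and 3 of control discs, chosen by the genotype in the sample labels. The eye-antennal disc is the larval epithelium that forms the adult eye, antenna and head capsule. In CtBP discs the FRT82B chromosome arm with the allele CtBP87De-10 lay opposite an FRT82B arm with a cell lethal mutation, and in control discs the FRT82B arm opposite it held no mutation named in the labels. Both groups carried eyFLP, a flippase driven in the eye-antennal disc, so that mitotic recombination removed cells homozygous for the lethal arm and left discs in which most cells are homozygous for the arm under test. Cells that had not recombined may remain in such discs, and the labels name a single CtBP allele. A second pair of genotypes was used to look at the same allele in other libraries. These were 3 libraries of CtBP scrib discs, with scrib1 and CtBP87De-10 on the tested arm, and 3 of scrib discs, with scrib1 alone. The 3 libraries of fos discs, with fosKM, served as another set of discs with wild type CtBP. No library is shared between CtBP against control and CtBP scrib against scrib. The sample labels give the same rearing temperature for every library of the series.

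CtBP has no DNA-binding domain that picks its targets. It is brought to genes by short motifs in DNA-binding repressors such as Knirps, Krüppel, Snail and Brinker, and it brings histone deacetylases and demethylases with it. Genes that such repressors keep silent may be derepressed when CtBP is lost, and other genes may be lost because a repressor of their activators is then present.

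The CtBP libraries held 30403118, 30950240 and 25154988 counts, and the control libraries 28365398, 26576898 and 27357884. CtBP replicate 1 stood apart from the other CtBP libraries, with a chi-square per degree of freedom of 137 and 120.0 against them, where those 2 libraries gave 11.9 against each other. Its share of ribosomal RNA was 8.31%, against 2.60% and 2.80% in the other CtBP libraries and 2.77% to 3.93% in control libraries. Hsp70 genes took 0.465%, 0.345% and 0.0175% of counts in CtBP libraries and 0.744%, 0.00783% and 0.0841% in control libraries, so that both groups held libraries with high and low heat shock RNA. Replicate 1 had the highest Hsp70 share in all 6 genotypes of the series, at 0.172% to 0.744%, against 0.00542% to 0.345% in replicates 2 and 3. Control replicate 1 also lay further from the other control libraries (27.8 and 32.8) than these lay from each other (10.1). RNA of sorts on different days was pooled into each library. The sources used here give no sorting gate, and nothing in them says that libraries of a genotype came from separate animals or crosses. What the p-values measure is therefore the spread among these samples alone, which may be technical. The defining genes of the disc were present in both groups. In CtBP libraries ey, so, eya and dac of the eye field ranged over 99.9 to 108 CPM, 110.4 to 121 CPM, 329 to 359 CPM and 343 to 364 CPM, and in control libraries over 118 to 128 CPM, 131 to 136 CPM, 352 to 364 CPM and 326 to 362 CPM. The antennal gene Dll had 154 to 160.0 CPM in CtBP libraries and 138 to 159 CPM in control libraries. CPM here are each gene's share of the library's counts, on the usual counts-per-million-reads scale, corrected for composition between libraries.

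The CtBP transcript itself had 288, 279 and 295 CPM in CtBP libraries, against 809, 817 and 838 CPM in control libraries. The groups did not overlap, and the 3 CtBP libraries stood at 35.1%, 34.0% and 35.9% of the control mean (log2 fold change -1.52, SE 0.04, adjusted p = 7.04e-16). Transcript of the mutant allele and transcript of cells that were not mutant cannot be told apart in what remained. The genes of the complexes in which CtBP works gave no further call. The other 17 of 18 listed co-repressor genes were not called, and levels were 377 and 352 CPM for groucho (gro), 354 and 343 CPM for HDAC1, 177 and 179.9 CPM for CoRest and 48.4 and 47.3 CPM for the demethylase gene Su(var)3-3, in CtBP and control discs in that order.

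Of 10834 genes tested, 1566 (14.5%) were called in CtBP against control, meaning an adjusted p below 0.05 over all genes tested. Of these, 758 (7.0%) were higher and 808 (7.46%) were lower in CtBP. Without CtBP replicate 1 the calls numbered 1208, 594 higher and 614 lower. Most calls were small. The median log2 fold change was 0.31 among the genes that rose and -0.57 among those that fell, against 0.01 over all genes tested. A change of at least 2-fold was called for 304 genes (2.81%), of which 117 (1.08%) rose and 187 (1.73%) fell. Only 72 of these 304 reached a mean of 10 CPM in the higher group, 37 that rose and 35 that fell. By rank alone, all 3 CtBP libraries lay above all 3 control libraries in 1848 genes (17.1%) and below them in 1612 genes (14.9%), which is 31.9% of genes in either direction. The genes named below for the largest changes at 10 CPM or more were chosen from such separated genes. That their libraries do not overlap is therefore no result. Members of gene lists were named for the smallest p or after their values were seen, which also favours separated libraries. Where their libraries do not overlap, this is a description and no further support.

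**Figure D1:**
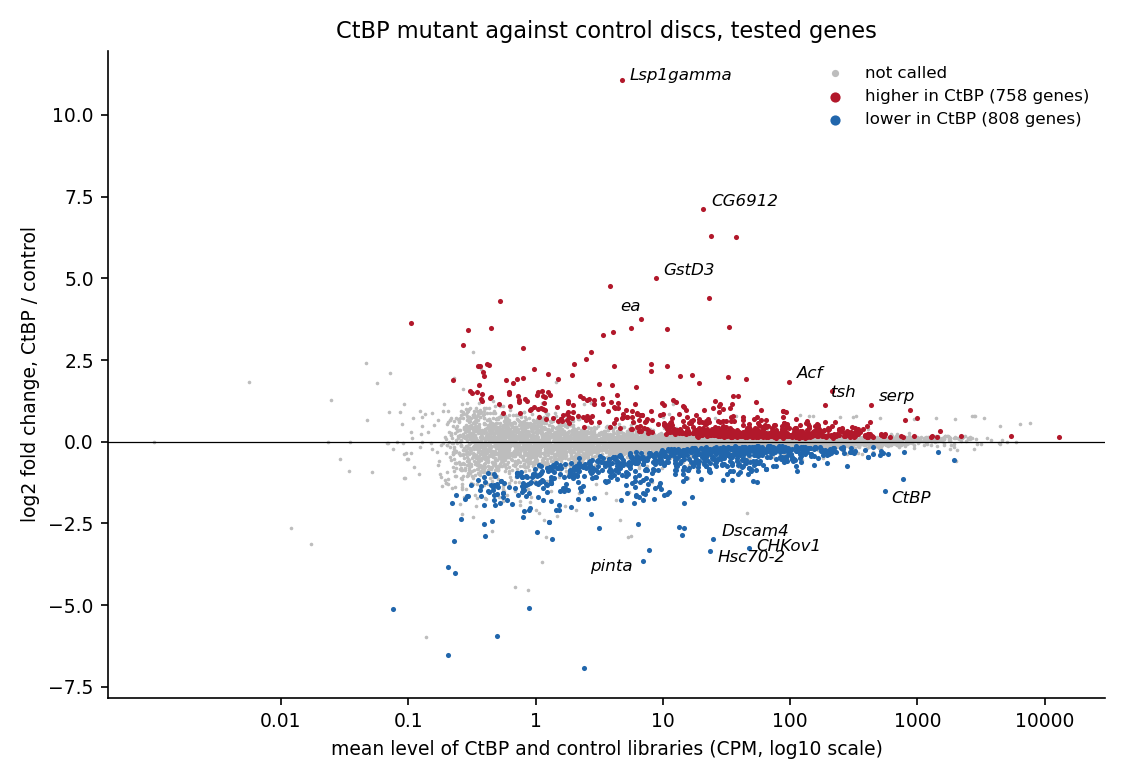
Log2 fold change of CtBP over control (vertical axis) against the mean level of the 6 libraries in CPM (horizontal axis, log scale) for each tested gene, with 758 called higher genes in red, 808 called lower genes in blue and all others in grey. Most called genes lie close to 0, and a small number of genes such as CG6912, GstD3, CHKov1 and pinta lie far from it.

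The largest rise among genes of at least 10 CPM came from neighbouring genes on arm 3R. CG6912 (FBgn0038290; 3R, dm6 positions 15135138 to 15137004) had 39.7, 42.8 and 41.4 CPM in CtBP libraries, against 0.273, 0.252 and 0.352 CPM in control libraries (log2 fold change 7.12, SE 0.14, adjusted p = 3.24e-18). CG3984 (FBgn0038291; 3R, 15137148 to 15139007), which starts just beyond it, had 43.2, 51.4 and 46.0 CPM in CtBP libraries, against 0.478, 0.613 and 0.705 CPM in control libraries (6.28, SE 0.13, adjusted p = 5.14e-18). The groups were far apart for both genes, with no control library above 1 CPM. The noncoding gene asRNA:CR45600 rose by about as much (6.25), but it overlaps CG3984 over 1860 bases on the opposite strand. The sources used here give no strand setting for the counting, so the reads of that pair cannot be told apart. A further neighbour, CG3987, whose counts may also include reads of that noncoding gene over 164 shared bases, had means of 7.35 CPM in CtBP discs and 0.715 CPM in control discs.

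GstD3 and ea, also on 3R, were close to silent in control discs. GstD3 (FBgn0010039; 3R, 12373068 to 12373813), a glutathione S-transferase gene, had 20.5, 15.3 and 15.7 CPM in CtBP libraries, against 0.820, 0.325 and 0.423 CPM in control libraries (log2 fold change 5.01, SE 0.28, adjusted p = 4.94e-09). ea (FBgn0000533; 3R, 15328729 to 15330408) encodes Easter, the serine protease that cuts the Toll ligand Spätzle in the embryo. It had 14.3, 12.6 and 10.6 CPM in CtBP libraries, against 0.546, 1.26 and 0.986 CPM in control libraries (3.75, SE 0.24, adjusted p = 2.29e-09). Neither gene had a control library near the lowest CtBP library. Of 9 tested genes of the Toll protease cascade, ea was called higher and 2 were called lower (33.3% called, against 14.5% of all genes tested). The count called higher was 2 without CtBP replicate 1. The called lower genes were grass, which encodes a protease upstream of Spätzle, with 3.51 ± 0.809 CPM in CtBP and 10.4 ± 2.15 CPM in control discs (SD, n = 3 each), and spz, which encodes Spätzle, with 2.50 ± 0.565 CPM and 5.32 ± 2.11 CPM in the same order. The call for spz was lost without replicate 1 of every genotype (log2 fold change -0.54, adjusted p = 0.0666), and its direction turned against fos libraries. The receptor gene Tl had 89.7 CPM in CtBP and 78.0 CPM in control discs and was not called.

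**Figure D2:**
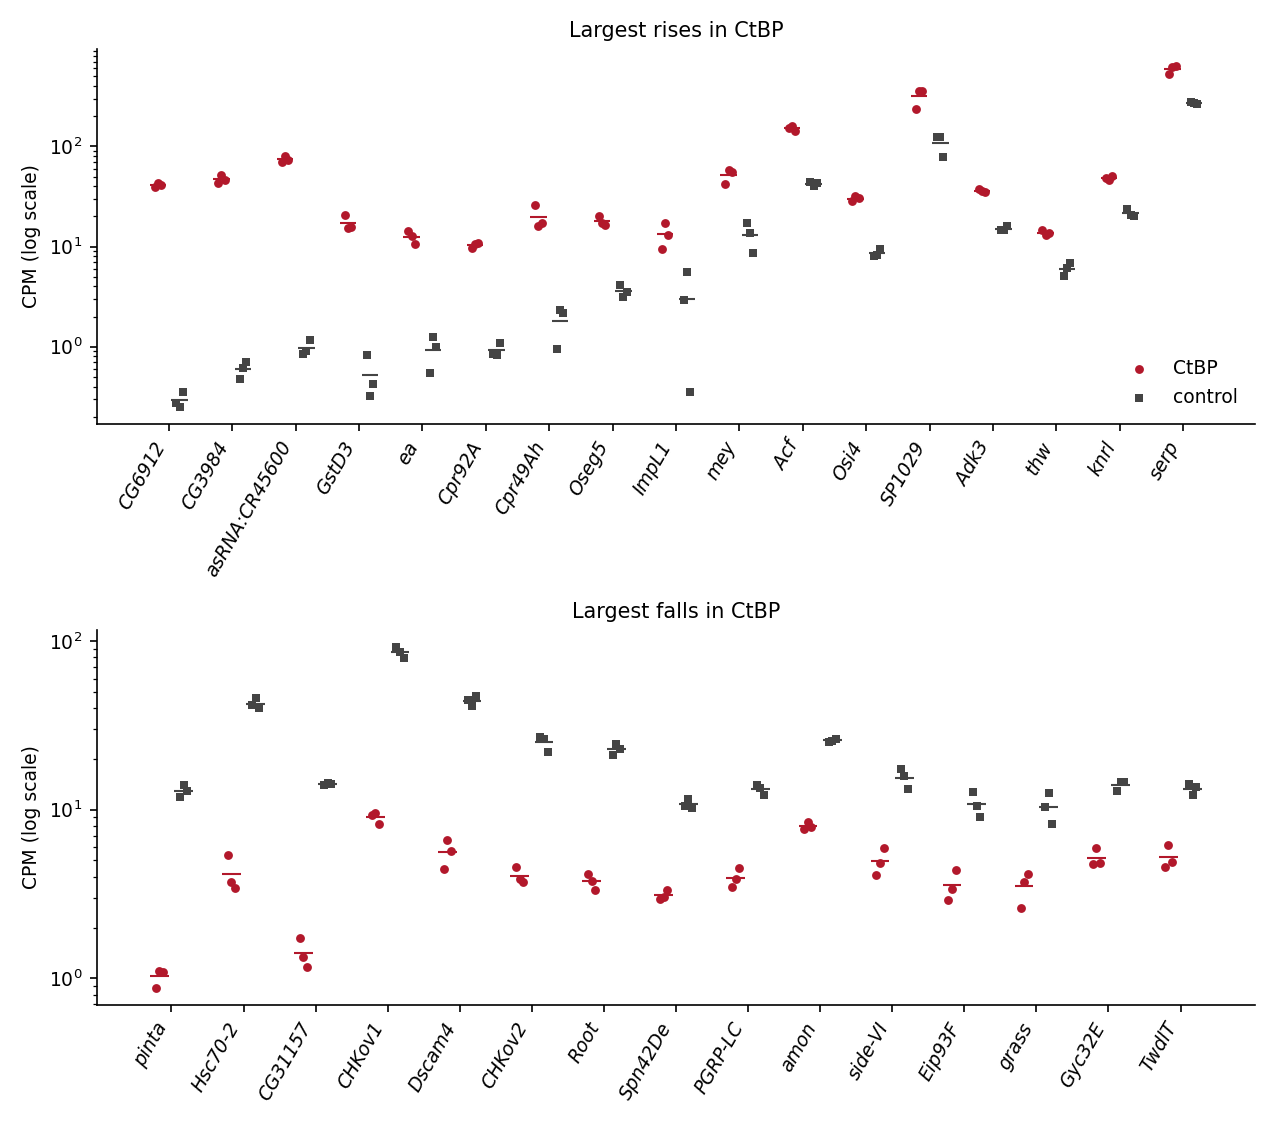
Level in CPM (vertical axis, log scale) in each of the 3 CtBP libraries (red circles) and 3 control libraries (grey squares), with the mean as a line, for the genes with the largest rises (upper panel) and the largest falls (lower panel) at 10 CPM or more. Only genes with separated libraries were chosen, so the groups are apart for every gene drawn. For CG6912, CG3984 and GstD3 the control libraries lie below 1 CPM.

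A gene for a chromatin protein stood among the large rises at a high level. Acf (FBgn0027620; 3R, 31793981 to 31799799), which encodes the large subunit of a nucleosome-spacing complex with the ATPase Iswi, had 154, 159 and 144 CPM in CtBP libraries, against 43.7, 40.6 and 43.2 CPM in control libraries (log2 fold change 1.84, SE 0.08, adjusted p = 5.58e-12). The groups were separated by a wide gap. Its partner Iswi was not called, with 283 CPM in CtBP and 276 CPM in control discs, nor were Chrac-14 and Chrac-16, the small subunits that join it. Of 17 tested genes of chromatin remodelling, Acf was the only called member (5.88%, against 14.5% of all genes tested). The list's median log2 fold change was 0.00. Acf also stood out across genotypes, at 136 CPM in CtBP scrib, 146 CPM in scrib and 42.4 CPM in fos discs. Its log2 fold change of CtBP scrib over scrib was -0.10, and the difference between the backgrounds was called (adjusted p = 8.50e-10). Acf overlaps CG42233 over 166 bases on the opposite strand.

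Cuticle protein genes moved both ways. Cpr92A and Cpr49Ah encode chitin-binding cuticle proteins of the Rebers and Riddiford family. Cpr92A had 9.68, 10.7 and 10.8 CPM in CtBP libraries, against 0.854, 0.830 and 1.09 CPM in control libraries (log2 fold change 3.49, SE 0.19, adjusted p = 2.24e-11). Cpr49Ah had 25.7, 16.2 and 17.2 CPM in CtBP libraries, against 0.956, 2.34 and 2.15 CPM in control libraries (3.44, SE 0.24, adjusted p = 6.57e-09). Every CtBP library lay well above the control libraries for both. The cuticle gene Lcp65Ad rose as well, to 4.27 ± 0.384 CPM in CtBP, against 0.736 ± 0.0726 CPM in control discs (2.53, SE 0.28). TwdlT of the Tweedle family went the other way, with 5.21 ± 0.827 CPM in CtBP and 13.3 ± 1.00 CPM in control discs (-1.35, SE 0.16). Of 47 tested genes of the cuticle protein list, 6 were called higher and 8 lower (29.8% called, against 14.5% of all genes tested). The list median was 0.02. The list was formed by symbol prefix and also took in the gene Cpr, which is not a cuticle protein gene and was not called. Without CtBP replicate 2 the genes called lower numbered 5.

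The Osiris genes, which lie in a cluster on 3R and are known for their expression in cuticle-secreting epithelia, had 5 called higher and 0 called lower among 10 tested. This share was above the 14.5% called of all genes tested. The median log2 fold change of the 10 genes was 0.86. Osi4 had 28.3, 31.6 and 30.5 CPM in CtBP libraries, against 8.09, 8.22 and 9.51 CPM in control libraries (1.81, SE 0.11, adjusted p = 1.09e-10). Its CtBP libraries all lay far above its control libraries, which stayed below 10 CPM. Osi7 followed with 4.90 ± 0.407 CPM in CtBP and 1.42 ± 0.449 CPM in control discs (1.78, SE 0.28), and Osi2 with 6.18 ± 0.223 CPM and 2.71 ± 0.354 CPM (1.19, SE 0.19) in the same order. Osi3 was at a low level, 1.67 ± 0.175 CPM in CtBP and 0.564 ± 0.374 CPM in control discs (1.56), and its call was lost without control replicate 1 (adjusted p = 0.0609). Osi6 had means of 16.4 CPM in CtBP and 7.42 CPM in control discs and missed the threshold (adjusted p = 0.0909). In CtBP scrib against scrib, 0 of the 10 genes were called higher and 1 was called lower. Osi4 was close to silent there, at 0.584 CPM in CtBP scrib and 0.328 CPM in scrib discs.

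The chitin deacetylase genes serp and verm, best known from the tracheal lumen, rose and were abundant in these discs. serp had 529, 623 and 631 CPM in CtBP libraries, against 278, 272 and 263 CPM in control libraries (log2 fold change 1.13, SE 0.08, adjusted p = 1.33e-09). verm had 1054, 1233 and 1195 CPM in CtBP libraries, against 603, 629 and 561 CPM in control libraries (0.96, SE 0.07, adjusted p = 6.61e-09). The tracheal selector trh, at 1.28 CPM in CtBP and 1.31 CPM in control discs, and the tracheal receptor gene btl, at 4.94 CPM and 5.31 CPM in the same order, were not called. Further genes of varied function were among the large rises. The zona pellucida domain gene mey had 42.5, 57.5 and 55.0 CPM in CtBP libraries, against 17.1, 13.8 and 8.53 CPM in control libraries (1.98, SE 0.21). The aminopeptidase gene SP1029 had 237, 361 and 353 CPM in CtBP libraries, against 124, 123 and 77.6 CPM in control libraries (1.55, SE 0.22). In both, CtBP replicate 1 was the lowest CtBP library, and the groups did not overlap, as the choice of these genes required. thw rose to 13.8 ± 0.676 CPM in CtBP, against 6.03 ± 0.895 CPM in control discs (1.19, SE 0.11). Oseg5, which encodes an intraflagellar transport protein, rose to 17.9 ± 1.85 CPM in CtBP, against 3.59 ± 0.518 CPM in control discs (2.32, SE 0.14). The ecdysone-inducible gene ImpL1 was called (2.17), but its libraries were scattered, at 9.45, 17.1 and 13.1 CPM in CtBP and 2.94, 5.59 and 0.352 CPM in control. Its call was lost in 5 of 6 fits that left out a library (adjusted p of 0.0584 without CtBP replicate 1, 0.134 without CtBP replicate 2, 0.0879 without CtBP replicate 3, 0.127 without control replicate 1 and 0.0971 without control replicate 3).

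Among regulators of patterning, the paired zinc finger genes tsh and tio rose. tsh encodes Teashirt, which acts with Hth and Ey in the proliferating cells anterior to the furrow. It had 244, 264 and 260.4 CPM in CtBP libraries, against 123, 116 and 116 CPM in control libraries (log2 fold change 1.12, SE 0.06, adjusted p = 3.64e-11). Its paralog tio had 101, 113 and 118 CPM in CtBP libraries, against 65.4, 63.8 and 67.2 CPM in control libraries (0.76, SE 0.07, adjusted p = 5.11e-08). In both genes each CtBP library lay above each control library by a wide margin. Of 14 tested eye specification genes, tsh and tio were the called higher members, and the called lower members were toe, eyg and Optix. The share called was 35.7%, against 14.5% of all genes tested. toe, a Pax gene, had 21.6, 31.5 and 29.5 CPM in CtBP libraries, against 44.4, 43.9 and 40.3 CPM in control libraries (-0.64, SE 0.15). Its paralog eyg had 47.5 CPM in CtBP and 63.9 CPM in control discs (-0.43). The homeobox gene Optix had 72.2 ± 0.778 CPM in CtBP and 86.2 ± 3.79 CPM in control discs (-0.26, SE 0.07). Without CtBP replicate 1, CtBP replicate 2, control replicate 1 or control replicate 2 the count called lower was 2. The core genes ey, toy, so, eya and dac were not called.

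The gap genes kni and knrl, neighbours on 3L that encode related transcription factors, rose together. Knirps is itself among the repressors reported to bind CtBP. kni had 34.3, 34.2 and 40.6 CPM in CtBP libraries, against 21.5, 17.6 and 19.0 CPM in control libraries (log2 fold change 0.91, SE 0.10, adjusted p = 2.00e-06). knrl had 48.0, 45.7 and 50.8 CPM in CtBP libraries, against 23.6, 20.8 and 20.05 CPM in control libraries (1.16, SE 0.07, adjusted p = 1.09e-10). The libraries of the groups were apart for both genes. Of 12 tested genes for repressors reported to bind CtBP, kni and brk were called higher and 0 lower. This share of 16.7% was near the 14.5% called of all genes tested. The rise of brk, the repressor gene of the Dpp pathway, was small, at 116 ± 7.26 CPM in CtBP and 103 ± 2.22 CPM in control discs (0.17). That call was lost without CtBP replicate 1 (adjusted p = 0.1002), CtBP replicate 3 (0.171), control replicate 1 (0.124) or control replicate 2 (0.102). hry had 97.7 CPM in CtBP and 102 CPM in control discs, H had 144 and 143 CPM and ttk had 303 and 317 CPM in the same order, and none of these was called.

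The 3 Iroquois genes, regulators of the dorsal head and eye, fell. caup had 41.0, 40.8 and 40.6 CPM in CtBP libraries, against 62.9, 60.3 and 61.2 CPM in control libraries (log2 fold change -0.59, SE 0.06, adjusted p = 3.70e-07). ara had 23.1, 19.5 and 19.5 CPM in CtBP libraries, against 33.8, 32.2 and 29.5 CPM in control libraries (-0.62, SE 0.08, adjusted p = 6.66e-06). mirr had 73.1, 79.7 and 77.2 CPM in CtBP libraries, against 111, 102 and 105 CPM in control libraries (-0.47, SE 0.08, adjusted p = 2.64e-04). All 3 genes had every CtBP library below every control library. Of 8 tested Iroquois and head regulators, 0 were called higher and 5 lower, the others being Optix and the head gap gene oc (-0.19), with a list median of -0.25. The share called was 62.5%, against 14.5% of all genes tested. The count called lower was 4 without CtBP replicate 1, CtBP replicate 3, control replicate 1 or control replicate 3.

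Hox genes and other selectors that Polycomb proteins keep silent elsewhere had no called higher member. Of 13 tested, 0 were called higher and 7 lower (53.8% called, against 14.5% of all genes tested), with a median log2 fold change of -0.21. The count called lower was 2 without CtBP replicate 1 or without control replicate 1, and 3 without CtBP replicate 2. vg, the wing selector, was at a low level and fell to 0.511 ± 0.148 CPM in CtBP, against 1.79 ± 0.170 CPM in control discs (-1.78, SE 0.25). The Hox gene Scr had 4.94, 4.53 and 6.36 CPM in CtBP libraries, against 10.4, 10.4 and 7.57 CPM in control libraries (-0.85, SE 0.17). Its libraries did not overlap, and its call was lost without replicate 1 of every genotype (adjusted p = 0.0895). The Hox gene lab had 12.2 CPM in CtBP and 11.6 CPM in control discs and was not called. Of 19 tested Polycomb and Trithorax group genes, Psc was called lower (-0.29) and 0 were called higher, a share of 5.26%, below that of all genes tested. Among 20 antennal and distal limb genes, 2 were called higher and 3 lower (25.0% called, against 14.5% of all genes tested). The BTB gene bab1, which acts in distal segments, fell to 5.11 ± 0.298 CPM in CtBP, against 9.33 ± 0.292 CPM in control discs (-0.87, SE 0.10). With any 1 of the 6 libraries left out, the antennal and limb genes called higher numbered 1. Dll and ss, which specify distal limb and antenna, were not called. The call of ct, which encodes a homeodomain protein of the antenna, was lost without CtBP replicate 1 (adjusted p = 0.135), control replicate 1 (0.0622) or control replicate 3 (0.0553), and that of bab2 without CtBP replicate 1 (0.0912) or control replicate 1 (0.0828).

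**Figure D3:**
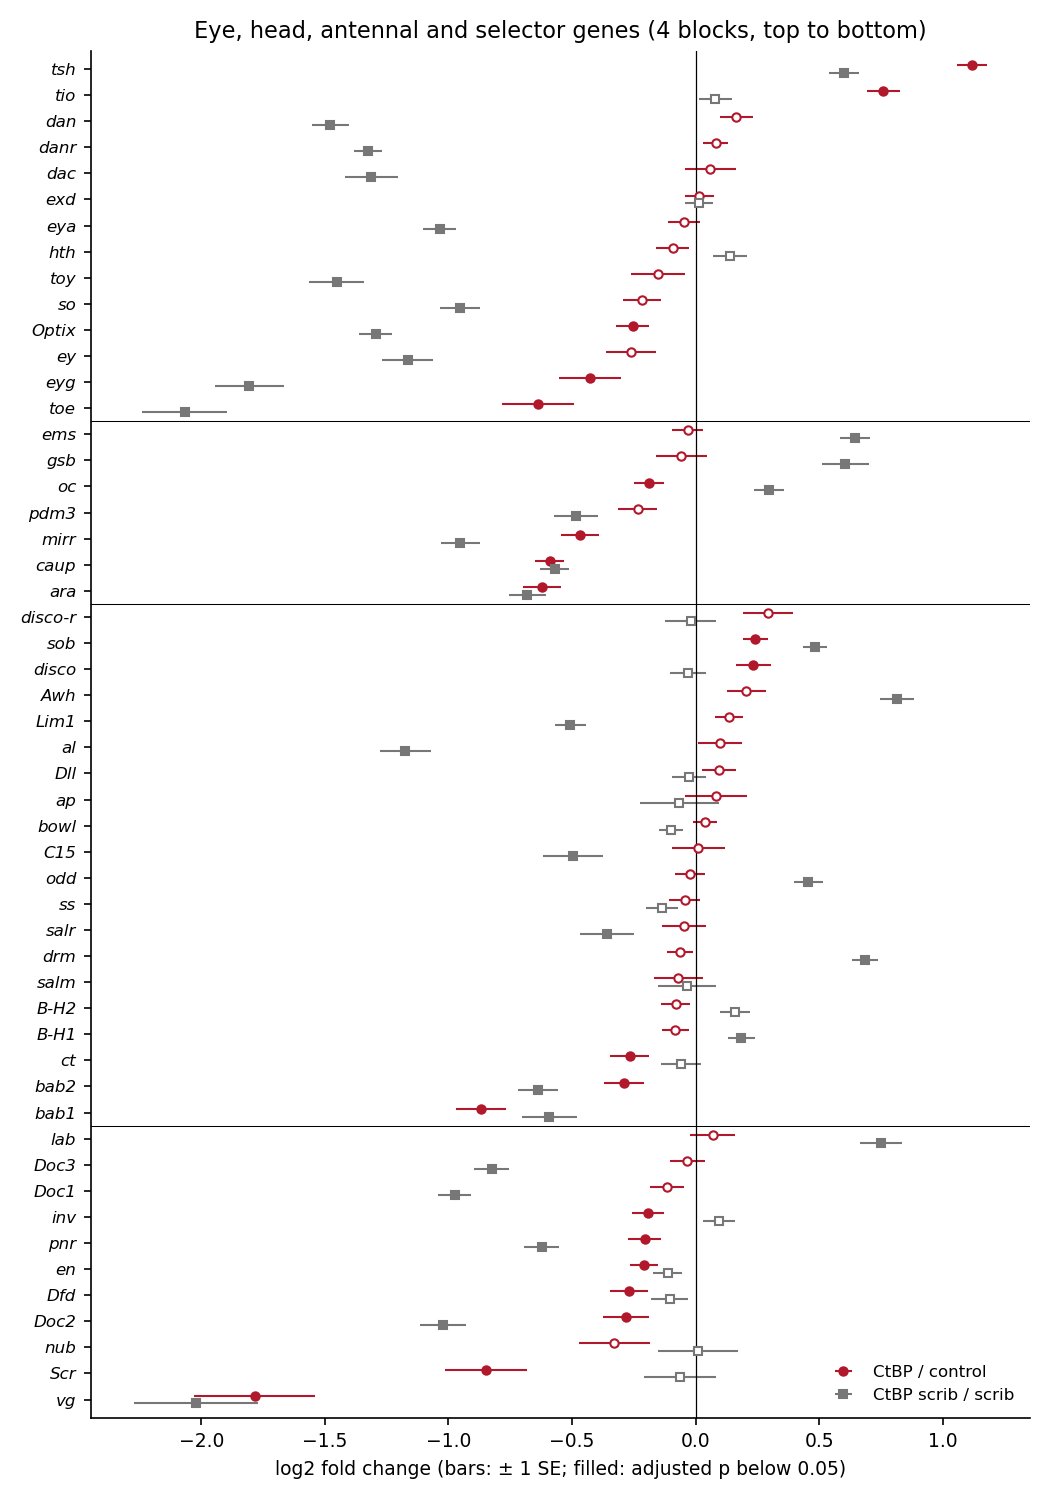
Log2 fold change with its SE (horizontal axis) for 52 genes of eye specification, head regulators, antennal and limb patterning, and selectors (4 blocks from top to bottom), in CtBP over control (red circles) and in CtBP scrib over scrib (grey squares), filled where the adjusted p was below 0.05. tsh and tio lie to the right in CtBP over control, while the Iroquois genes, bab1, Scr and vg lie to the left.

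Genes of retinal differentiation had falls and no rise. Of 15 tested photoreceptor and cone cell genes, 0 were called higher and 5 lower, with a median log2 fold change of -0.26. The share called was 33.3%, against 14.5% of all genes tested. The count called lower was 3 without CtBP replicate 1. svp, which encodes a nuclear receptor of outer photoreceptors, had 34.1, 35 and 33.4 CPM in CtBP libraries, against 50.9, 48.1 and 50.8 CPM in control libraries (-0.55, SE 0.08, adjusted p = 3.24e-05). boss, which encodes the R8 ligand of Sevenless, had 4.33, 4.69 and 3.78 CPM in CtBP libraries, against 6.76, 6.64 and 6.52 CPM in control libraries (-0.63, SE 0.12, adjusted p = 0.00105). sv, the Pax gene of cone cells, had 9.55, 10.5 and 11.0 CPM in CtBP libraries, against 16.1, 15.1 and 13.5 CPM in control libraries (-0.53, SE 0.11, adjusted p = 0.00203). For these 3 genes the CtBP libraries all lay below the control libraries. The pan-neuronal gene elav, at 161 CPM in CtBP and 195 CPM in control discs (-0.28), and gl, at 218 CPM and 245 CPM in the same order (-0.17), were not called. In bulk tissue, fewer cells of a type and less RNA of the gene per cell cannot be told apart. The call of lz was lost without CtBP replicate 1 (adjusted p = 0.145) or control replicate 1 (0.125), and that of run without CtBP replicate 1 (0.0509).

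The proneural genes split. ato, the proneural gene of R8, had 48.9, 44.4 and 45.2 CPM in CtBP libraries, against 64.5, 59.9 and 59.8 CPM in control libraries (log2 fold change -0.41, SE 0.08, adjusted p = 0.00220). sca, a secreted protein gene that acts in R8 spacing, had 187, 196 and 191 CPM in CtBP libraries, against 146, 141 and 135 CPM in control libraries (0.44, SE 0.08, adjusted p = 4.10e-04). One gene fell and the other rose with no overlap of libraries, while sens, which acts below ato, had 23 CPM in CtBP and 21.0 CPM in control discs and was not called. Of 10 tested genes of this list, 1 was called higher and 3 lower (40.0% called, against 14.5% of all genes tested). Among 16 Notch pathway genes, 3 were called higher and 4 lower (43.8% called). The helix-loop-helix gene dpn rose to 42.1 ± 2.03 CPM in CtBP, against 26.8 ± 0.845 CPM in control discs (0.65, SE 0.06), and fng, which glycosylates Notch, to 169.7 ± 13.1 CPM, against 136 ± 4.68 CPM (0.32, SE 0.05). The Notch target E(spl)m4-BFM fell to 85.8 ± 4.54 CPM in CtBP, against 119 ± 1.52 CPM in control discs (-0.47, SE 0.08). The count of Notch genes called lower was 6 without CtBP replicate 1 and 2 without CtBP replicate 3 or control replicate 1.

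Neuronal recognition genes of the immunoglobulin families had more falls than rises. Of 36 tested members of the Dpr, DIP, Beat and Side families, 2 were called higher and 7 lower, with a median log2 fold change of -0.25. The share called was 25.0%, against 14.5% of all genes tested. Without CtBP replicate 1 the count called lower was 4, and without CtBP replicate 2, CtBP replicate 3, control replicate 1 or control replicate 3 the count called higher was 1. side-VI fell to 4.96 ± 0.921 CPM in CtBP, against 15.4 ± 2.07 CPM in control discs (-1.64, SE 0.13), and beat-IIIa to 5.33 ± 0.398 CPM, against 8.64 ± 0.230 CPM (-0.69, SE 0.12). Of 21 tested genes of neuronal differentiation, 0 were called higher and 2 lower, a share of 9.52%, below that of all genes tested. Without CtBP replicate 1 or control replicate 2 no gene of that list was called. Without CtBP replicate 3 or control replicate 1 the count was 1. The 2 were the synaptic genes Syt4 (-0.30) and Rim (-0.47), and the direction of Syt4 turned against fos libraries.

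Of the tested genes in the signalling lists, the share called was 23.5% for Wingless, 21.4% for Dpp and Hedgehog, 23.1% for EGFR, 41.7% for Hippo targets, and 21.4% for JNK and AP-1 targets, against 14.5% of all genes tested, and 2 of 10 JAK/STAT genes were called. These shares rest on 2 to 5 called genes a list. In the Wingless list, 2 of 17 tested genes were called higher and 2 lower. Wnt4, a Wnt ligand gene, had 8.87, 11.5 and 12.1 CPM in CtBP libraries, against 20.2, 17.1 and 18.4 CPM in control libraries (log2 fold change -0.78, SE 0.11). Wnt2 fell to 24.4 ± 3.32 CPM in CtBP, against 34.1 ± 3.37 CPM in control discs (-0.49, SE 0.09). The Wnt gene Wnt10 was called higher at a low level, 1.21 CPM in CtBP and 0.505 CPM in control discs, and its call was lost without control replicate 3 (adjusted p = 0.0560). wg itself had 75.4 CPM in CtBP and 81.3 CPM in control discs and was not called. dally, a glypican gene of the Wnt and Dpp pathways, had 418, 426 and 423 CPM in CtBP libraries, against 327, 316 and 320.4 CPM in control libraries (0.40, SE 0.05). In the Dpp and Hedgehog list 3 of 14 were called higher and 0 lower. put, a type II receptor gene of the Dpp pathway, had 142, 139 and 139.6 CPM in CtBP libraries, against 100.3, 96.2 and 96.0 CPM in control libraries (0.52, SE 0.04, adjusted p = 6.54e-09). put lies 1.60 Mb from CtBP. Without CtBP replicate 1 or control replicate 2 the count called higher was 1. The ligand gene dpp was at 68.3 CPM in CtBP and 69.1 CPM in control discs. In the EGFR list 2 of 13 were called higher, the ETS regulator genes edl (0.31) and aop (0.20), and 1 lower, the inhibitor gene sty (-0.20). The call of aop was lost in 5 of 6 fits that left out a library (adjusted p of 0.150 without CtBP replicate 2, 0.129 without CtBP replicate 3, 0.0531 without control replicate 1, 0.153 without control replicate 2 and 0.128 without control replicate 3). That of sty was lost without CtBP replicate 1 (0.0633), CtBP replicate 2 (0.106), control replicate 1 (0.137) or control replicate 3 (0.0513), and without control replicate 2 the count called lower was 2.

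The Hippo target list had 4 of 12 called higher and 1 lower, with a median log2 fold change of 0.10. fj, a kinase gene of the Fat pathway, rose to 289 ± 7.96 CPM in CtBP, against 221 ± 6.51 CPM in control discs (0.39, SE 0.05). kibra (0.35) and ex (0.20), which encode upstream regulators that Yorkie also induces, and dally were the other called higher members, and Wnt2 the lower one. Without CtBP replicate 2, CtBP replicate 3, control replicate 1 or control replicate 2 the count called higher was 3. Diap1, which encodes the caspase inhibitor that Yorkie induces, had 329 CPM in CtBP and 309 CPM in control discs and was not called. Targets of JNK and AP-1 had 2 of 14 called higher and 1 lower, with a median of -0.16. puc, the JNK phosphatase gene, had 45.3 CPM in CtBP and 45.0 CPM in control discs. The Ilp8 gene, induced by damage, had 1.65 CPM and 1.71 CPM in the same order. scaf fell to 75.1 ± 1.99 CPM in CtBP, against 109 ± 7.39 CPM in control discs (-0.54, SE 0.07). rpr, the cell death gene, had 16.6, 13.3 and 14 CPM in CtBP libraries, against 8.47, 9.31 and 8.91 CPM in control libraries (0.72, SE 0.10, adjusted p = 1.75e-05). Its libraries did not overlap, while hid had 86.1 CPM in CtBP and 84.6 CPM in control discs and was not called. Without control replicate 2 the JNK and AP-1 genes called lower numbered 5, and without CtBP replicate 1, CtBP replicate 3 or control replicate 1 they numbered 2. The count called higher was 1 without CtBP replicate 2, CtBP replicate 3 or control replicate 2. Of 10 JAK/STAT genes, 1 was called higher and 1 lower, Stat92E (0.17) and upd1 (-0.74). The call of Stat92E was lost without CtBP replicate 1 (adjusted p = 0.0799), control replicate 1 (0.0663) or control replicate 2 (0.0604). That of upd1 was lost without CtBP replicate 1 (0.0609), CtBP replicate 2 (0.0697), CtBP replicate 3 (0.0744) or control replicate 1 (0.135), and without the last its log2 fold change was -0.40. Without control replicate 2, 2 genes of that list were called lower.

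Glutathione S-transferase genes other than GstD3 had more falls than rises. Of 21 tested glutathione S-transferase genes outside the GstD cluster, 2 were called higher and 11 lower, with a median log2 fold change of -0.28. The share called was 61.9%, against 14.5% of all genes tested. Without control replicate 2 the count called higher was 0, and without each of the other 5 libraries it was 1. GstO3 had 67.0, 71.2 and 71.9 CPM in CtBP libraries, against 112, 109 and 105 CPM in control libraries (-0.63, SE 0.05, adjusted p = 1.18e-08). GstE1 had 14.4, 12.1 and 12.8 CPM in CtBP libraries, against 21.8, 19.98 and 22.5 CPM in control libraries (-0.71, SE 0.08, adjusted p = 7.33e-07). Neither gene had overlapping libraries. GstE5 fell furthest, at a low level, to 0.351 ± 0.0728 CPM in CtBP, against 1.44 ± 0.282 CPM in control discs (-2.04, SE 0.37). Reads of close paralogs in the GstE and GstD clusters may have been split by the counting, so these values are uncertain. In the GstD cluster 2 of 6 tested genes (33.3%) were called higher. Beside GstD3 this was GstD4, at 0.198 CPM in CtBP and 0.0114 CPM in control discs with overlapping libraries, and its call was lost without CtBP replicate 1 (adjusted p = 0.275), CtBP replicate 3 (0.0517), control replicate 1 (0.0520), control replicate 2 (0.121) or control replicate 3 (0.116). GstD1, the main inducible member, had 465 CPM in CtBP and 431 CPM in control discs and was not called. Of 44 tested genes of the cytochrome P450 list, 3 were called higher and 7 lower (22.7% called, against 14.5% of all genes tested). Without CtBP replicate 3 or control replicate 1 the count called lower was 4. The list was formed by symbol prefix and also took in Cyp40, which is not a P450 gene, and pseudogenes such as Cyp6t2Psi, none of them called. Cyp4e2 fell to 19.99 ± 1.63 CPM in CtBP, against 28.2 ± 1.60 CPM in control discs (-0.50, SE 0.07).

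The largest falls among genes of at least 10 CPM were mostly on 3R. pinta (FBgn0038966; 3R, 22423316 to 22424929), which encodes a retinoid-binding protein needed for visual pigment, had 0.880, 1.11 and 1.09 CPM in CtBP libraries, against 11.9, 14 and 12.9 CPM in control libraries (log2 fold change -3.65, SE 0.12, adjusted p = 8.84e-15). Hsc70-2 (FBgn0001217; 3R, 13044759 to 13047388), a heat shock cognate gene that lies 18.5 kb from CtBP, had 5.35, 3.74 and 3.43 CPM in CtBP libraries, against 41.6, 45.8 and 40.0 CPM in control libraries (-3.34, SE 0.12, adjusted p = 3.84e-13). CG31157, the next gene, had 1.73, 1.33 and 1.17 CPM in CtBP libraries, against 14, 14.4 and 14.2 CPM in control libraries (-3.32, SE 0.12, adjusted p = 2.07e-14). The control level was many times that of every CtBP library for these 3 genes.

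CHKov1 and CHKov2, adjacent paralogs that encode kinase-like proteins, fell together. CHKov1 (FBgn0045761; 3R, 25323156 to 25329316) had 9.28, 9.60 and 8.23 CPM in CtBP libraries, against 91.9, 86.1 and 79.4 CPM in control libraries (log2 fold change -3.24, SE 0.08, adjusted p = 1.95e-16). CHKov2 had 4.57, 3.86 and 3.75 CPM in CtBP libraries, against 27.0, 26.4 and 22.0 CPM in control libraries (-2.63, SE 0.10, adjusted p = 3.98e-14). The gap between the groups was wide in both, and reads that fit either paralog may have been split. Dscam4 (FBgn0263219; 3L, 8238647 to 8282398), an immunoglobulin adhesion gene, had 4.47, 6.65 and 5.66 CPM in CtBP libraries, against 44.6, 41.3 and 47.0 CPM in control libraries (-2.98, SE 0.11, adjusted p = 3.31e-13). Root, which encodes the protein of ciliary rootlets, had 4.16, 3.80 and 3.35 CPM in CtBP libraries, against 21.2, 24.5 and 23 CPM in control libraries (-2.60, SE 0.10, adjusted p = 6.92e-14). Neither gene had a CtBP library near its control libraries. Both overlap another gene on the opposite strand, so reads of those pairs cannot be told apart.

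Other large falls were of genes with varied roles. PGRP-LC, which encodes the receptor of the Imd pathway, fell to 3.95 ± 0.504 CPM in CtBP, against 13.2 ± 0.940 CPM in control discs (log2 fold change -1.74, SE 0.14). amon, which encodes a prohormone convertase, had 7.65, 8.49 and 7.88 CPM in CtBP libraries, against 25.3, 25.6 and 26.3 CPM in control libraries (-1.68, SE 0.09, adjusted p = 1.77e-11). Eip93F, an ecdysone-induced transcription factor gene, had 2.91, 3.39 and 4.41 CPM in CtBP libraries, against 12.8, 10.6 and 9.09 CPM in control libraries (-1.61, SE 0.16, adjusted p = 5.10e-07). The CtBP libraries lay below the control libraries for all of these. Of 18 tested genes of the ecdysone response, Eip93F was the only called lower member, and mld (0.39) the only called higher one. The share called was 11.1%, against 14.5% of all genes tested. EcR, the receptor gene, had 144 CPM in CtBP and 134 CPM in control discs. The serpin gene Spn42De fell to 3.10 ± 0.192 CPM in CtBP, against 10.8 ± 0.669 CPM in control discs (-1.80, SE 0.11), and Gyc32E, a receptor guanylate cyclase gene, to 5.15 ± 0.638 CPM, against 14.1 ± 0.935 CPM (-1.44, SE 0.13). Of 8 tested immune genes (25.0% called), PGRP-LC and AttA were called lower and 0 higher, and the direction of AttA turned against fos libraries. Its call was lost without CtBP replicate 2 (adjusted p = 0.101), control replicate 1 (0.116) or control replicate 3 (0.0670).

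Lists of the cell cycle, cell death, cell junctions, basement membrane, glycolysis and heat shock had 4.0%, 13.3%, 5.56%, 14.3%, 33.3% and 5.88% of their tested genes called in that order, against 14.5% of all genes tested. Of 25 cell cycle genes, the Cdc25 phosphatase gene stg was the only called member (0.18), and that call was lost without CtBP replicate 1 (adjusted p = 0.150), CtBP replicate 3 (0.101), control replicate 1 (0.205) or control replicate 3 (0.0697). Of 15 cell death genes, rpr and the TNF receptor gene wgn (0.33) were called higher and 0 lower. Of 18 junction genes, vari (0.18) was the only called member. In the basement membrane list 0 of 14 were called higher and 2 lower. The laminin genes wb and LanA were the called members, with 88.5 ± 11.7 CPM in CtBP and 131 ± 0.614 CPM in control discs for wb (log2 fold change -0.56, SE 0.10) and 439 ± 50.2 CPM and 586 ± 25.4 CPM for LanA (-0.42, SE 0.09) in the same order. In that list 4 genes were called lower without CtBP replicate 3, and 1 was called higher without CtBP replicate 1. Of 12 glycolysis genes, Ald1 (0.24) was called higher and Gapdh2 (-0.27), Pglym78 (-0.19) and PyK (-0.20) lower, and without CtBP replicate 2 or CtBP replicate 3 the count called lower was 1. The call of Pglym78 was lost in all 6 fits that left out a library (adjusted p of 0.0655 without CtBP replicate 1, 0.0633 without CtBP replicate 2, 0.0876 without CtBP replicate 3, 0.0908 without control replicate 1, 0.0563 without control replicate 2 and 0.0649 without control replicate 3). That of PyK was lost without CtBP replicate 2 (0.0602), CtBP replicate 3 (0.0709) or control replicate 3 (0.0547). Of 17 heat shock genes, Hsp67Ba was called lower (-0.40) and 0 higher, and that call was lost without CtBP replicate 1 (adjusted p = 0.131), CtBP replicate 3 (0.0657) or control replicate 1 (0.122). Without control replicate 3, 2 heat shock genes were called lower.

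In lists of markers of other cell types that the sorted discs could hold, 0 to 2 members a list were called. Where any were called, the share was 15.4% for blood, 33.3% for tracheal, 12.5% for fat body and 22.2% for neuroblast markers. It was 14.5% of all genes tested. The summed level over 13 blood cell markers was 794 to 1200.0 CPM in CtBP libraries and 884 to 1040.0 CPM in control libraries, and 1 member was called higher (Ppn) and 1 lower (lz). Much of that sum was Ppn, a matrix protein gene with 403, 573 and 558 CPM in CtBP libraries, against 367, 344 and 289.7 CPM in control libraries. Its call was lost in the fit of the 6 libraries alone (adjusted p = 0.0805). Without Ppn the sums were 391, 481 and 638 CPM in CtBP libraries, against 544, 540.0 and 752 CPM in control libraries, which overlap. The mean was lower in CtBP for 11 of the 13 members, and the list's median log2 fold change was -0.30, against 0.01 over all genes tested. NimC1, a phagocytosis receptor gene, had 5.05, 7.38 and 9.25 CPM in CtBP libraries, against 9.53, 9.92 and 12.8 CPM in control libraries, with no overlap, and was not called. The count called lower was 0 without CtBP replicate 1 or control replicate 1, and 4 without CtBP replicate 3. Hml, a defining gene of plasmatocytes, had 37.6 CPM in CtBP and 44.7 CPM in control discs. Glial markers summed to 409 to 428 CPM in CtBP libraries and 423 to 435 CPM in control libraries, and muscle markers to 694 to 849 CPM in CtBP libraries and 711 to 758 CPM in control libraries, and neither list had a called member. Germline, salivary gland and sex-biased markers had 0 called members as well, though 2 salivary gland markers were called lower without control replicate 2. For salivary gland markers the mean was lower in CtBP for 6 of 8 members, with a list median of -1.38. Their sums were 2.12 to 2.89 CPM in CtBP libraries and 2.13 to 8.02 CPM in control libraries. For sex-biased markers the mean was higher in CtBP for 8 of 9 members, with a list median of 0.22. Sxl was the exception, at 275, 259 and 285 CPM in CtBP libraries and 314, 296 and 311 CPM in control libraries. No cause of these shifts was tested. Of 9 tested neuroblast markers, dpn was called higher and ase lower. The call of ase was lost without CtBP replicate 1 (adjusted p = 0.0600) or control replicate 1 (0.0567), and 2 markers were called lower without CtBP replicate 2 or CtBP replicate 3. The tracheal sum was 2370.0 to 2890.0 CPM in CtBP libraries and 1660.0 to 1730.0 CPM in control libraries, carried by serp and verm. Fat body markers summed to 16.5 to 23.5 CPM in CtBP libraries and 16.3 to 47.3 CPM in control libraries. Without Lsp1gamma the fat body sums were 13.8, 9.22 and 6.98 CPM in CtBP libraries, against 27.9, 47.3 and 16.3 CPM in control libraries, and did not overlap. The mean was lower in CtBP for 6 of the 8 members, with a list median of -1.27. Lsp2 had 2.03, 0.697 and 1.25 CPM in CtBP libraries, against 5.84, 19.9 and 3.77 CPM in control libraries. Fbp1 had 1.86, 0.665 and 1.95 CPM in CtBP libraries, against 6.83, 11.7 and 4.61 CPM in control libraries. Both lay below control in every CtBP library and neither was called. In that list Lsp1gamma (FBgn0002564; 3L, 66430 to 68995), a larval serum protein gene, had 9.72, 9.56 and 9.48 CPM in CtBP libraries and 0 counts in all 3 control libraries, as in all scrib and CtBP scrib libraries. With 3 counts over the control group as the floor, which covers counting error only, it was at least 263-fold higher in CtBP. Its partners Lsp1alpha, at 0.496 CPM in CtBP and 2.44 CPM in control discs, and Lsp1beta, at 1.70 CPM and 4.22 CPM in the same order, were not called. The part of other cell types in the results was not tested.

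The same allele was then looked at in the scrib background, where 2027 genes (18.7%) were called in CtBP scrib against scrib, 1037 (9.57%) higher and 990 (9.14%) lower. Of the genes that rose in CtBP against control, 276 also rose in CtBP scrib against scrib, which is 36.4% of the 758 and 26.6% of the 1037. Of the genes that fell, 332 fell in both, which is 41.1% of the 808 and 33.5% of the 990. The opposite call was made for 43 of the genes that rose and 54 of those that fell. The difference between the backgrounds itself was called for 1136 of all genes tested (10.5%), among them 247 of the 758 that rose (32.6%) and 276 of the 808 that fell (34.2%). In sum, 523 of the 1566 called genes had a called difference between the backgrounds. These genes were chosen by the CtBP against control values, which are also part of that difference.

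CG6912, CG3984, GstD3, ea, serp, verm, Hsc70-2 and CG31157 changed in the same direction in both backgrounds, with no called difference between them. Their log2 fold changes of CtBP scrib over scrib were 6.28, 6.28, 4.92, 4.55, 1.25, 1.19, -3.05 and -3.07 in that order. ea had a mean of 17.6 CPM in CtBP scrib and 0.745 CPM in scrib discs. Genes for patterning that did so were caup (-0.57), ara (-0.68), bab1 (-0.59), Wnt4 (-0.80) and vg (-2.02). kni and knrl rose more in the scrib background, by 1.55 and 1.54, and for both the difference was called (adjusted p = 0.00274 and 0.0103). thw rose far more beside scrib. It had 175 CPM in CtBP scrib and 20.3 CPM in scrib discs (3.11), and the difference was called (adjusted p = 1.69e-08).

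Other large changes were seen in CtBP against control alone. For pinta the means were 20.7 CPM in CtBP scrib and 20.4 CPM in scrib discs (log2 fold change 0.02), and the difference between backgrounds was called (adjusted p = 1.91e-12). CHKov1 had 68.0 CPM in CtBP scrib and 74.1 CPM in scrib discs (-0.12), and Dscam4 had 53.2 CPM and 56.3 CPM in the same order (-0.08), with adjusted p = 3.29e-13 and 1.25e-10 for the difference. Cpr92A (-0.04), Oseg5 (-0.04), SP1029 (-0.02), Root (0.00) and CHKov2 (-0.24) were likewise not called in CtBP scrib against scrib. Their differences between backgrounds were all called. Of the 14 eye specification genes, 5 (35.7%) were called in CtBP against control, 2 higher and 3 lower, and 11 in CtBP scrib against scrib, 1 higher and 10 lower. ey, toy and dac had log2 fold changes of -1.17, -1.45 and -1.31 there, and 12 of the 14 genes had a called difference between backgrounds. tsh rose in both backgrounds, by less in the scrib background (0.60, adjusted p of the difference = 2.92e-04).

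**Figure D4:**
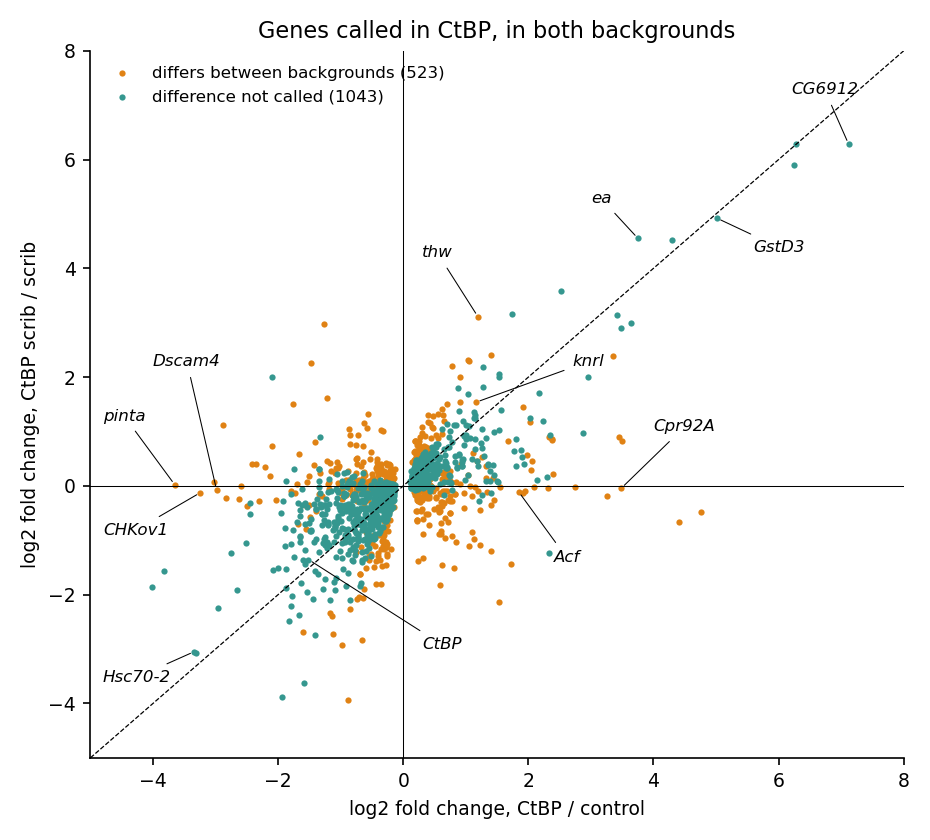
Log2 fold change of CtBP over control (horizontal axis) and of CtBP scrib over scrib (vertical axis) for the 1566 genes called in CtBP against control, with 523 genes whose difference between backgrounds was called in orange and 1043 others in green. The dashed line marks equal change, 6 genes lie outside the axes, and genes such as CG6912, GstD3, ea and Hsc70-2 lie near the line while pinta, CHKov1, Dscam4, Cpr92A and Acf lie near 0 on the vertical axis.

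Called genes were more frequent on 3R, the arm that holds CtBP and the FRT82B site, and no test was made of this share. Arm 3R held 24.1% of the genes tested, 33.0% of the called genes and 40.5% of those changed at least 2-fold, and 19.8% of its tested genes were called. On 2L, 2R, 3L, 4 and X the share called was 11.0%, 14%, 14.4%, 15.6% and 11.1%. With genes of 3R removed from the analysis, 1007 genes were called, 469 higher and 538 lower. Along 3R, bounds were set after the values were seen, so the shares are a description. From 1 Mb before to 3 Mb after CtBP, 85 of 365 tested genes were called (23.3%), and 69.4% of these were called in the same direction in the scrib background. More than 3 Mb after CtBP, 324 of 1436 were called (22.6%), 26.5% of them were called in the same direction in the scrib background and 44.1% had a called difference between backgrounds. More than 1 Mb before CtBP, 106 of 808 were called (13.1%), and on the other arms 1040 of 8144 (12.8%). CG6912, CG3984, ea and GstD3 lie 2.12, 2.12, 2.31 and 0.645 Mb from the middle of CtBP, within the zone around it. pinta, Root, CHKov1 and Acf lie 9.41, 11.1, 12.3 and 18.8 Mb from it. On the other arms 39.3% of called genes were called in the same direction in the scrib background, and 31.9% had a called difference between backgrounds. Loss of CtBP and any other sequence difference, on the mutant arm or on other arms, were present in the same libraries. Their parts in the changes on any arm cannot be told apart.

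Close to CtBP the changes were limited to some neighbours. CG11656, 0.563 kb before CtBP, fell to 2.63 ± 0.383 CPM in CtBP, against 7.82 ± 1.24 CPM in control discs (log2 fold change -1.57, SE 0.14). CG7966, 23.1 kb beyond it and next to Hsc70-2 and CG31157, fell to 5.63 ± 0.998 CPM in CtBP, against 16.5 ± 0.682 CPM in control discs (-1.55, SE 0.11). The xanthine dehydrogenase gene ry, 6.25 kb away, had 32.4 CPM in CtBP and 32.2 CPM in control discs, and CG46280, directly beyond CtBP, had 111 CPM and 109 CPM in the same order, and neither was called. The P450 gene Cyp304a1, 45.7 kb before CtBP, rose to 0.827 ± 0.108 CPM in CtBP, against 0.0712 ± 0.0633 CPM in control discs (3.48, SE 0.45). CG17327 and CG44194, which hold identical counts, rose to 25.5 CPM in CtBP, against 17.3 CPM in control discs (0.56). Cyp304a1 lies within grsm on the opposite strand, and whether reads of the pair were mixed was not tested. grsm had means of 186 CPM in CtBP and 189 CPM in control discs and was not called.

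**Figure D5:**
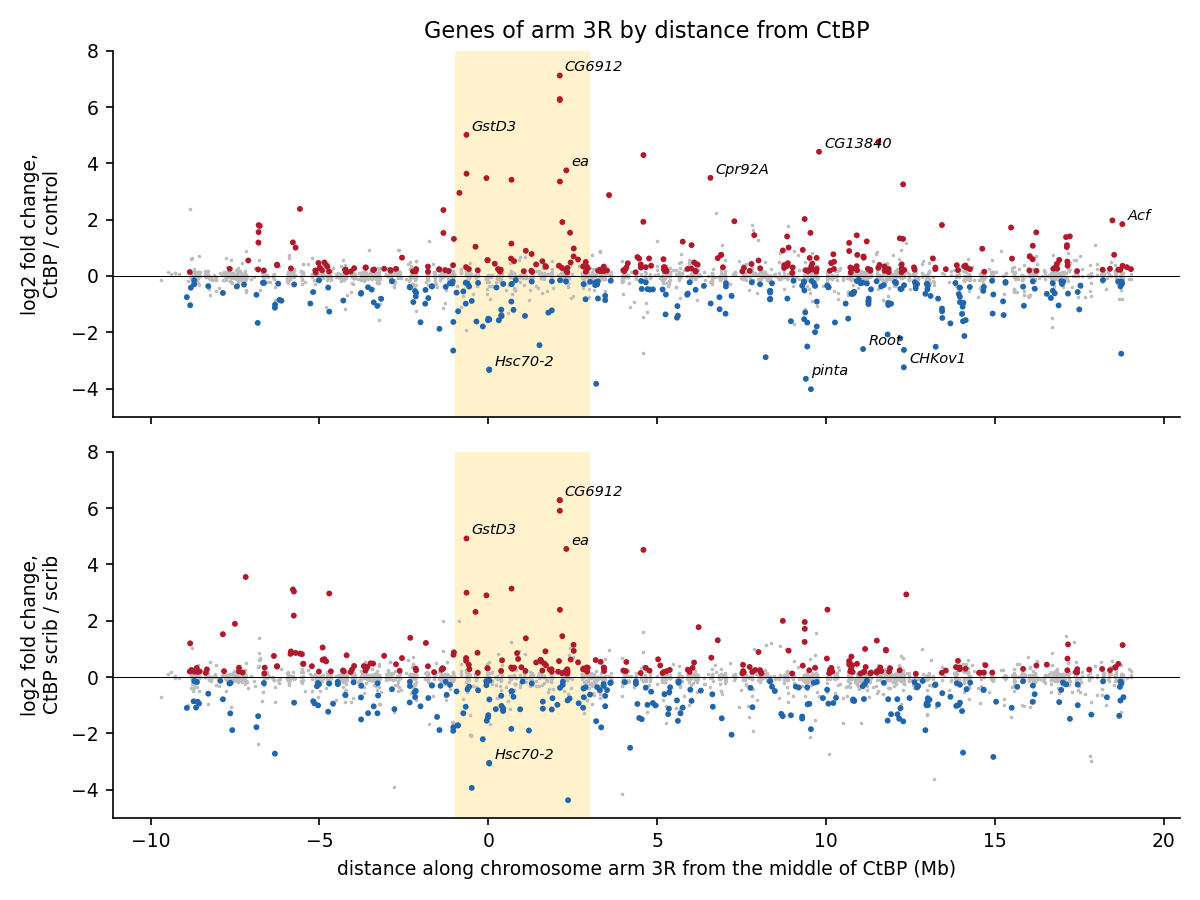
Log2 fold change of each tested gene of arm 3R against its distance in Mb from the middle of CtBP, for CtBP over control (upper panel) and CtBP scrib over scrib (lower panel), with called genes in red (higher) and blue (lower), others in grey, and 1 gene outside the axes. The shaded band spans 1 Mb before to 3 Mb after CtBP, where CG6912, GstD3, ea and Hsc70-2 keep their place in both panels, while pinta, Root, CHKov1, Cpr92A and Acf, outside it, do so only in the upper panel.

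The 3 fos libraries gave a check on the control libraries, with which CtBP was compared above. Mean levels in fos discs were 0.372 CPM for CG6912, 0.399 CPM for GstD3, 0.675 CPM for ea, 119.8 CPM for tsh, 11.8 CPM for pinta, 83.2 CPM for CHKov1 and 44.9 CPM for Dscam4. These lay near the control means of 0.293, 0.522, 0.932, 118, 12.9, 85.8 and 44.3 CPM. With fos libraries in place of control, 1710 genes were called in CtBP, 938 higher and 772 lower. Of these, 1201 were among the 1566 called against control. An exception among the large rises was the adenylate kinase gene Adk3, with 37.2, 35.7 and 35 CPM in CtBP libraries and 14.6, 14.5 and 16.1 CPM in control libraries (log2 fold change 1.26, SE 0.12). It stood at 35.4 CPM in fos discs, and against these its call was lost (0.03, adjusted p = 0.928). The call of ImpL1 was also lost against fos libraries (adjusted p = 0.110).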

How the data were processed

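RNA of eye-antennal discs was extracted with Trizol and made into libraries with a TruSeq kit, per the labels' protocols. The authors deposited a table of raw read counts per gene for all 18 libraries. Per the submitters' processing notes the tools were Subread, featureCounts and edgeR with genome build dm6. The sources used here give no versions, annotation or strand setting. Gene positions came from the Ensembl annotation of BDGP6, which matched 17425 of 17529 gene IDs, and many genes overlap others on either strand.

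The deposited counts were used as they stand. Genes with low counts were removed with filterByExpr by genotype, which left 10834 of 17529, and libraries were scaled with TMM. edgeR 4.0.16 (R 4.3.3) quasi-likelihood tests were fitted over all 18 libraries, 3 for each of 6 genotypes, with no covariate and 12 residual degrees of freedom. P-values were adjusted by Benjamini and Hochberg's method over all 10834 genes, and genes below 0.05 were called. The SE of a log2 fold change is the absolute log2 fold change over the square root of F. The difference between backgrounds is the log2 fold change of CtBP scrib over scrib minus that of CtBP over control. CPM use counts of tested genes and TMM factors. Alternatives used DESeq2 1.42.0 (size factors or its Wald test), other filters, a replicate block, each library left out, arm 3R or ribosomal RNA genes removed, only the 6 libraries compared, and fos libraries in place of control. Scripts were tested on simulated data.

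Genes named were the 14 largest rises and 14 largest falls at 10 CPM or more with separated libraries and a symbol other than an annotation number, the 3 largest rises and 3 largest falls whatever the symbol, and from each of 42 lists the called members with the smallest p, at most 4. Neighbours of CtBP, CG3987 and further list members were named after their values were seen. The members and lists were chosen with earlier results of these data known, and 7 list entries were not matched.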

Additional observations from a re-analysis of the deposited data

Results flagged for a closer look

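For 16 of the genes with the largest changes, the change differed between the 2 backgrounds. It was tested as the log2 fold change of CtBP scrib over scrib minus that of CtBP over control, with edgeR. Loss of CtBP and other sequence differences between the genotypes cannot be told apart in this difference. The genes were chosen by the CtBP against control values that the difference subtracts. That choice favours a difference opposite in sign to the change. The difference was called for 10.5% of all genes tested, and for 36.0% of called genes other than CtBP that changed at least 2-fold. Among genes that rose in CtBP against control, this difference was negative for Cpr92A (-3.53, adjusted p = 1.37e-07), Cpr49Ah (-2.54, 5.36e-04), Oseg5 (-2.35, 8.52e-08), Acf (-1.95, 8.50e-10), SP1029 (-1.57, 0.00660) and mey (-1.41, 0.00647). It was positive for thw (1.92, 1.69e-08) and knrl (0.37, 0.0103). Among genes that fell in CtBP against control, it was positive for pinta (3.67, 1.91e-12), CHKov1 (3.12, 3.29e-13), Dscam4 (2.90, 1.25e-10), Root (2.60, 7.06e-09), CHKov2 (2.39, 1.25e-10), Spn42De (1.70, 4.09e-07), grass (1.21, 0.00254) and amon (0.98, 0.00186). SP1029, Root and amon were far lower in scrib discs than in control discs, with 19.7, 1.74 and 1.80 CPM in scrib discs against 108, 22.9 and 25.7 CPM in control discs in that order, and the part of these levels in the difference was not tested.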

How the results depend on the processing

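Against 1566 genes called in CtBP against control, other settings gave 1547 with DESeq2 size factors, 1561 with the DESeq2 Wald test, 1416 with no filter, 1290 with a stricter filter, 1548 without ribosomal RNA genes, 1420 in a fit of the 6 libraries alone and 1176 without replicate 1 of every genotype. Of the 1566 genes, 1248 were called again in the fit of the 6 libraries alone and 970 without replicate 1 of every genotype. Leaving out 1 library gave 1185 to 1351 genes, 542 to 610 higher and 614 to 741 lower, and these fits hold fewer samples. With arm 3R removed the calls were 1007, 469 higher and 538 lower, from fewer genes tested. With a fold change of at least 2 they were 304, 117 higher and 187 lower. In CtBP scrib against scrib, leaving out 1 library gave 1627 to 1846 genes, and for the difference between backgrounds 939 to 1118.

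Of 114 named genes, 82 were called under all settings run, up to 16 each, 32 lost the call under at least 1, and 3 reversed. With fos libraries in place of control the log2 fold change of Syt4 was 0.18 (adjusted p = 0.209), of spz 0.0116 (0.985) and of AttA 0.21 (0.894), and the cause was not tested. With the replicate number as a block the calls were 1564 in CtBP against control, 2049 in CtBP scrib against scrib and 1133 for the difference between backgrounds. CtBP and control libraries of the same number had correlations of their deviations of -0.12 to -0.00491, so these 2 groups were not treated as paired. Over all 6 genotypes such correlations were -0.159 to 0.205 (median 0.0523), and 15 of 45 exceeded 0.1, against 9 of 90 between libraries of different numbers (median -0.026). The alternative on promoter windows was not run, since no promoter was searched. The depth of 25154988 counts or more per library sets a floor of 3 counts over a group at 0.0347 CPM for CtBP and 0.0364 CPM for control.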

Other observations

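Other large changes lay among genes without a named function here, chosen after their values were seen. CG13840 on 3R had 39.0, 44.0 and 49.0 CPM in CtBP libraries, against 1.64, 1.80 and 2.75 CPM in control libraries (log2 fold change 4.41, SE 0.15). Its libraries were far apart, whereas it was close to silent beside scrib, with 0.0566 CPM in CtBP scrib and 0.0879 CPM in scrib discs, and the difference between backgrounds was called (adjusted p = 0.00106). The noncoding gene lncRNA:CR46094 had 7.62, 7.70 and 7.02 CPM in CtBP libraries, against 0.137, 0.469 and 0.211 CPM in control libraries (4.76, SE 0.32). It too had no called change in CtBP scrib against scrib (-0.48). CG12224, 1.04 Mb before CtBP, fell to 0.867 CPM in CtBP, against 5.45 CPM in control discs (-2.65, SE 0.21), and also fell beside scrib (-1.91).

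Dnaaf3, which encodes an assembly factor of ciliary dynein arms, had 0.0339, 0.0633 and 0 CPM in CtBP libraries, against 5.91, 5.23 and 3.17 CPM in control libraries. It was nearly absent from fos discs as well, at 0.0129 CPM, and was present at 4.44 CPM in CtBP scrib and 8.23 CPM in scrib discs. Like Acf, at 146 CPM in scrib discs and 42.4 CPM in fos discs, it thus differed between genotypes that all have wild type CtBP.

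By annotated kind, 702 of 9703 protein-coding genes tested were called higher and 756 lower, and 44 of 746 noncoding RNA genes were called higher and 44 lower. Of the 304 genes changed at least 2-fold, 160 had a mean of 1 to 10 CPM in the higher group, 54 that rose and 106 that fell. Another 72 stayed below 1 CPM in both groups, 26 that rose and 46 that fell.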
